A study of Homo sapiens with 12 samples.

Results

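The change in gene expression between 48 h and 72 h after transfection was described in RWPE1 cells that carry a GFP-ERG construct. The members were chosen by their labels as the 4 arrays of this construct, 2 at 48 h and 2 at 72 h, out of 12 arrays in the series. RWPE1 is an immortalised, non-cancerous human prostate epithelial line, kept here in KSFM, a medium for keratinocytes. GFP-ERG is the transcription factor ERG joined to green fluorescent protein, and the control construct carries GFP alone. Each of the 4 RWPE1 groups (GFP at 48 h, GFP at 72 h, GFP-ERG at 48 h and GFP-ERG at 72 h) had 2 arrays, and total RNA was isolated at the stated time. The other 4 arrays, of another prostate line, are not analysed here. The labels mention no selection of transfected RWPE1 cells, and they do not state which share of the cells carried a construct. Because time after transfection is also time in culture, both cannot be told apart within GFP-ERG cells, and the GFP cells of the same ages are set beside them.

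ERG belongs to the ETS family of transcription factors, and gene fusions place it under androgen control in many prostate cancers. Metallothioneins store zinc and copper, the Notch pathway carries signals between touching cells, and type I interferon switches on antiviral genes, and all 3 systems are active in epithelial cells.

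Levels are normalized log2 signals of a 1-colour bead array, and changes are log2 differences between the 72 h and the 48 h mean with n = 2 arrays per group. The scale ran from 5.95 to 15.1, with a median of 7.24 over all probes. The 2 arrays of a group were alike, with at most 1 gene apart by over 2-fold. The basal epithelial keratins KRT5 and KRT14 lay above the 98.8th percentile of every RWPE1 array. Lists of markers of other cell types held low and high members. KLK3 and MSMB of luminal prostate cells stayed at or below the 29.1th percentile, while KRT8, KRT18 and FKBP5 of the same list lay at or above the 81.5th. CDH5 of endothelium, LUM of fibroblasts and CHGA of neuroendocrine cells stayed at or below the 22.0th percentile. By mean level over the 8 arrays, the highest endothelial marker was ICAM2, from the 53.3th to the 62.5th percentile. CLDN5 and TEK of that list reached the 63.6th and the 63.1th on their highest array. The highest fibroblast markers were FBLN1, DCN and FAP, from the 63.2th percentile up, and the highest neuroendocrine marker was CHGB, from the 64.5th. PTPRC, the pan-leukocyte marker, lay between the 32.8th and the 42.2th percentile, and CD68 of that list at or above the 91.2th.

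Among 16591 genes, 4220 passed an adjusted p of 0.05 between 48 h and 72 h in GFP-ERG cells, which is 25.4% (limma over all probes, Benjamini-Hochberg). Of these, 2146 rose (12.9% of all genes) and 2074 fell (12.5%). The changes were mostly small, with a median size of 0.31 on the log2 scale among the genes that passed, and the median change of all genes was 0.00. Changes of at least 1 log2 unit numbered 57 upward and 34 downward. The p-values and each standard error (SE) rest on limma's estimate of a gene's spread between the arrays of a group. This estimate pools all RWPE1 groups, GFP included, and borrows from other genes. It has 4 degrees of freedom from the gene itself and 15.93 from other genes. An SE is therefore not the spread of the GFP-ERG arrays alone. The study's design text states duplicate transfections without saying whether the arrays of a group come from separate ones. In RNA from a whole culture, fewer cells of a kind and less RNA per cell cannot be told apart.

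ERG itself was read by 2 probes. The probe for NM_182918 read 7.33 and 7.29 at 48 h and 6.93 and 6.94 at 72 h in GFP-ERG cells. Both late arrays lay below both early ones, and the signal fell by 0.38 on the log2 scale (adjusted p = 0.000235 by limma). In GFP cells the same probe read 6.30, 6.43, 6.36 and 6.25, so every GFP-ERG array stayed above every GFP array. The brighter probe, for NM_004449, read 6.92 ± 0.12 at 48 h and 6.91 ± 0.09 at 72 h (mean ± SD, n = 2), with overlapping arrays, and did not pass (adjusted p = 0.946 by limma). The mean of both probes fell by 0.19 and passed (adjusted p = 0.0398 by limma). Over all 8 RWPE1 arrays the brighter probe averaged 6.92, so it read no higher with GFP-ERG than with GFP, unlike the NM_182918 probe. The mean of both probes therefore mixes a probe that differed between the constructs with a probe that did not. Both probes lie near the bottom of the scale, and the labels do not say which of them lies within the construct. FZD4, a Wnt receptor, read 10.17 and 10.16 at 48 h and 10.23 and 10.19 at 72 h, a change of 0.05 that did not pass (adjusted p = 0.701 by limma).

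The metallothioneins held the largest rises. MT1M read 8.03 and 8.08 at 48 h and 13.17 and 12.89 at 72 h. The late arrays stood far above the early ones, a 31.4-fold rise. The log2 change was 4.97 ± 0.08 (limma's SE, n = 2 per group, adjusted p = 2.69e-20 by limma). The SD of the MT1M arrays themselves was 0.03 at 48 h and 0.20 at 72 h. MT1G read 9.75 and 9.77 at 48 h and 13.69 and 13.55 at 72 h, a 14.5-fold rise. MT1B read 6.68 and 6.80 at 48 h and 10.06 and 10.04 at 72 h, a rise of 3.31 on the log2 scale. No fold is given for it, since its 48 h levels lay below the median of all probes. MT1F read 12.33 and 12.32 and then 14.05 on both late arrays, a 3.31-fold rise, and MT1E rose by 0.65 on the log2 scale. The times did not overlap in any of these 5 genes, as was the case in 57.5% of all genes. MT1X, at 14.76 to 14.83, and MT2A, at 14.55 to 14.64, lay close to the top of the scale at both times and did not pass. MT1H, at 6.20 to 6.32, lay close to the bottom and did not pass either. The metallothionein genes are near copies of each other, so the signals of their probes may not be independent.

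Zinc transport genes moved in both directions over the same interval. SLC30A1, the zinc exporter of the plasma membrane, read 9.31 and 9.25 at 48 h and 10.05 on both arrays at 72 h, a rise of 0.77. SLC30A2, which moves zinc into vesicles, rose by 1.06, and MTF1, the zinc sensor that drives metallothionein genes, by 0.32. The importer SLC39A10 read 9.44 and 9.54 at 48 h and 8.16 and 8.05 at 72 h, and fell by 1.39. SLC39A8 and SLC39A14, 2 further importers, fell by 0.57 and 0.24 on the log2 scale. Of 15 measured metallothionein and zinc transport genes, 8 rose and 3 fell, where 12.9% of all genes rose and 12.5% fell, and the median change was 0.32.

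**Figure D1:**
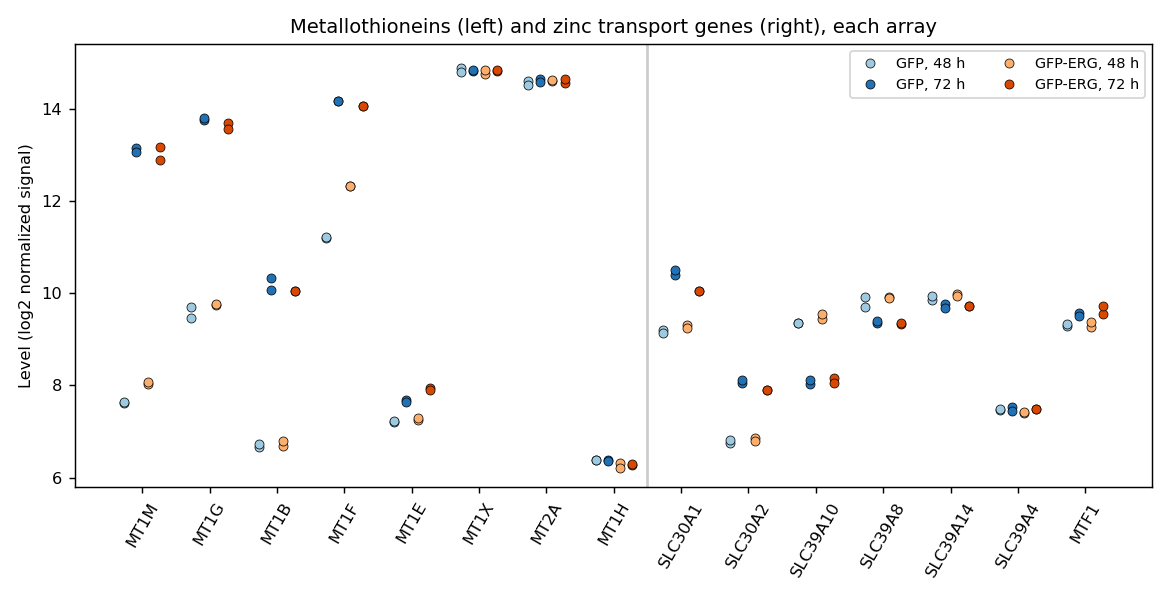
Level (log2 normalized signal, y axis) of 8 metallothioneins and 7 zinc transport genes on each of the 8 RWPE1 arrays, with 1 dot per array and colours for construct and time. MT1M, MT1G, MT1B and MT1F stand higher at 72 h under both constructs, while MT1X and MT2A stay near the top of the scale and MT1H near the bottom.

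The promoter of MT1B, which rose, is shown beside that of MT1X, which stayed near the top of the scale, because metal response elements are the sites through which MTF1 acts. The sequences come from RefSeq (GRCh38.p14), run 5′ to 3′ on the strand of the gene from 250 bases before to 50 after its start, and lie at chr16:56651636-56651935 (plus strand) for MT1B and chr16:56682220-56682519 (plus strand) for MT1X. Capitals mark the metal response element core, searched as TGCACNC or TGCGCNC on both strands.
MT1B: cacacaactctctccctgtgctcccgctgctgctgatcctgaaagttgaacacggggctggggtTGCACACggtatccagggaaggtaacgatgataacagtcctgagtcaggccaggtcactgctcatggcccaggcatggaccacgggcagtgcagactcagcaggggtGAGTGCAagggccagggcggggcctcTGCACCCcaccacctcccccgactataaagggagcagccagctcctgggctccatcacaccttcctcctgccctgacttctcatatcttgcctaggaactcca
MT1X: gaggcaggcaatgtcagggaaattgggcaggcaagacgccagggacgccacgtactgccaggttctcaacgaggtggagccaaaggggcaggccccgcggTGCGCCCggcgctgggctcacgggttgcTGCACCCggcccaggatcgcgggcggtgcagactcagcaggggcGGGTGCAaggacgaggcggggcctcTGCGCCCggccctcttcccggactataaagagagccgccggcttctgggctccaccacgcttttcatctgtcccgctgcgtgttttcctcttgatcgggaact
The MT1B window held 3 matches and the MT1X window 4. Promoters were found for 9 of the 15 genes, and 8 of the 9 held at least 1 match, against 33.4% of the 27305 genes with a RefSeq promoter. A match describes letters in a window and is no evidence of binding.

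Outside the metallothioneins, the largest rises were in FABP4, SERPINA3, IGFL1, FABP5, CPA4 and HES5, and HES5 is described with the Notch genes. FABP4, a fatty acid carrier known from fat cells and macrophages, read 7.55 and 7.60 at 48 h and 11.14 and 11.21 at 72 h, a 12.1-fold rise. FABP5, its epidermal relative, read 7.89 and 7.87 and then 10.59 and 10.73, a 6.88-fold rise. SERPINA3, an acute-phase protease inhibitor, read 8.60 and 8.73 and then 11.77 and 11.91, a 9.03-fold rise. The early and late arrays of these 3 genes lay far apart, with log2 changes of 3.60, 2.78 and 3.17 (SE 0.07 for each). IGFL1, a small secreted protein of the IGF-like family, rose 7.33-fold, and CPA4, a carboxypeptidase, rose 5.37-fold. SLC46A3, a lysosomal carrier, rose by 2.26 on the log2 scale, and the protease inhibitors SLPI and SERPINB13 by 1.94 and 1.90. TCN1, a vitamin B12 binder, rose by 1.94 and VSNL1, a neuronal calcium sensor, by 1.89.

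The largest fall was in IFNB1, which encodes interferon beta. It read 11.77 and 11.36 at 48 h and 9.56 and 9.41 at 72 h, a 4.22-fold fall. The log2 change was -2.08 ± 0.11 (limma's SE, n = 2 per group, adjusted p = 3.22e-11 by limma). The SD of the IFNB1 arrays themselves was 0.29 at 48 h and 0.10 at 72 h. Both late arrays lay well below both early ones. PRSS3, a trypsinogen, read 11.08 and 11.21 and then 9.65 and 9.56, a fall of 1.54 on the log2 scale. DKK1, a secreted Wnt inhibitor, read 13.02 and 12.95 and then 11.53 and 11.49, and fell by 1.48. The next falls were in TNFRSF6B, a decoy receptor for Fas ligand (-1.46), and in SLC39A10 (-1.39), PHLDA1 (-1.31) and LFNG (-1.30), which are described with their lists. They were followed by PTGS1, which encodes cyclooxygenase 1 (-1.28), STK32B, a protein kinase (-1.26), and TFPI2, a protease inhibitor of the extracellular matrix (-1.25). RGCC, a cell cycle regulator, changed by -1.21, VASN, a TGF-beta-binding protein, by -1.18, and COL8A1, a collagen chain, by -1.17. SASS6, a centriole protein, changed by -1.15 and CD68, a lysosomal protein best known from macrophages, by -1.13. A further probe for COL8A1 fell by 0.53. A further probe for PTGS1, below the median of all probes, fell by 0.23, and the mean of both PTGS1 probes changed by -0.76.

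**Figure D2:**
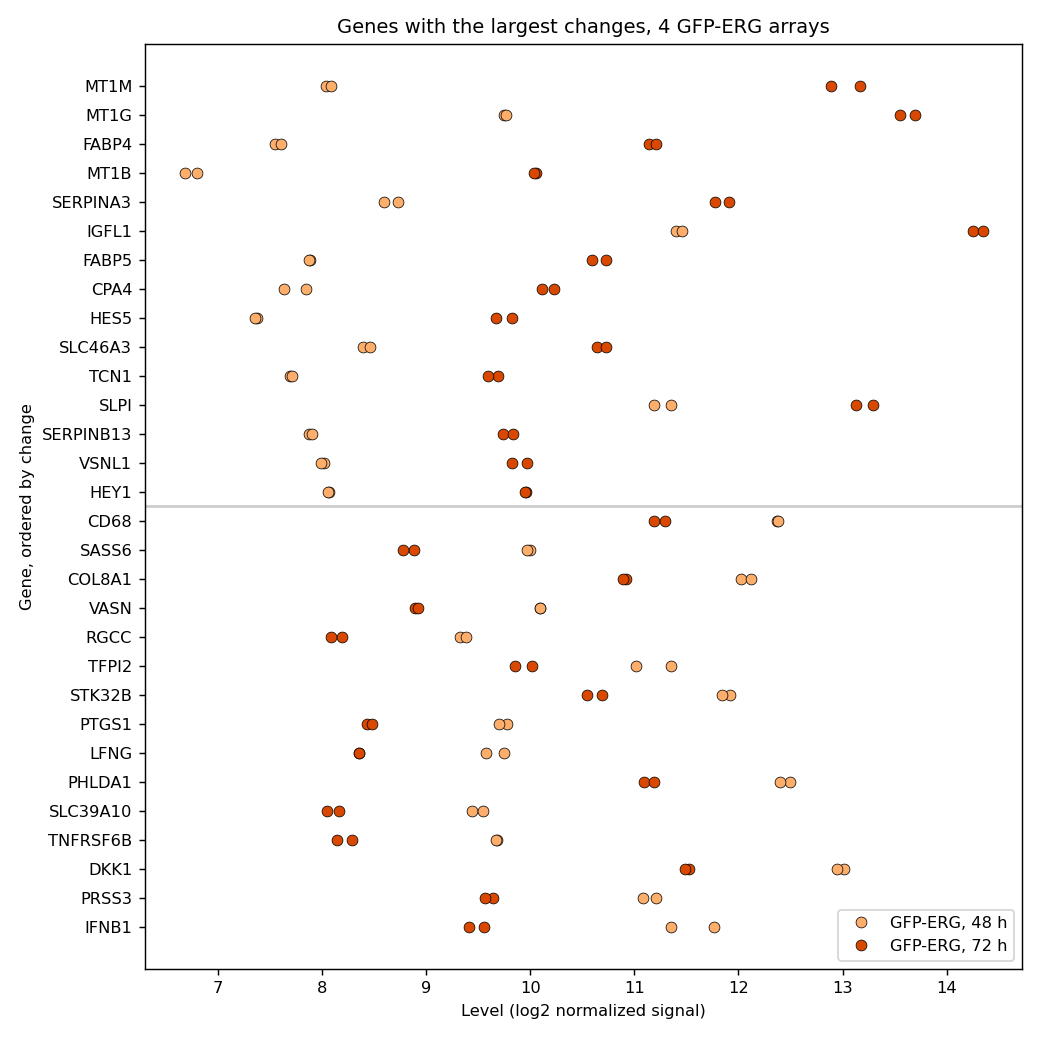
Level (log2 normalized signal, x axis) on the 4 GFP-ERG arrays of the 15 genes with the highest and the 15 with the lowest change, 1 row per gene and 1 dot per array. The genes were chosen among those whose early and late arrays do not overlap. They run from MT1M at the top, with a change of 4.97, to IFNB1 at the bottom, with a change of -2.08.

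The rises and falls were then read by gene lists, whose counts stand beside the 12.9% of genes that rose and the 12.5% that fell. All lists, that of the metallothioneins included, were chosen with earlier results of these data known. A count above these shares describes a list and is no test of it. In mitosis genes, 26 of 31 rose and 0 fell, and the median change was 0.47. CENPF, a kinetochore protein, read 9.41 and 9.23 at 48 h and 10.29 and 10.27 at 72 h, a 1.94-fold rise (adjusted p = 1.63e-09 by limma). CCNB1, the mitotic cyclin, read 10.08 and 9.90 and then 10.72 and 10.65, a rise of 0.70. TOP2A, which untangles chromosomes, read 10.76 and 10.75 and then 11.42 and 11.43, a rise of 0.67. The times did not overlap in any of the 3, as was the case in 57.5% of all genes. CCNA2 rose by 0.67, the proliferation marker MKI67 by 0.65 and CDK1, the kinase of mitotic entry, by 0.64. The members that did not pass were ECT2, PRC1, BUB3, CDC25C and CDC20, with changes from -0.08 to 0.20.

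S phase genes did not share that rise. Of 29 measured, 2 rose and 7 fell, and the median change was -0.03. RRM2, a subunit of ribonucleotide reductase, rose by 0.59. CDT1, which loads the replicative helicase, read 10.56 and 10.60 at 48 h and 9.99 and 10.06 at 72 h and fell by 0.55. The helicase subunits MCM2, MCM5 and MCM7 fell by 0.53, 0.38 and 0.24, although a dimmer MCM7 probe changed by 0.10 and did not pass. UHRF1, which keeps DNA methylation through replication, fell by 0.47. PCNA, the replication clamp, read 10.30 to 10.37 on all 4 arrays and did not pass. Of 18 replication-dependent histone genes, 5 rose and 1 fell. H4C3 read 13.41 and 13.47 at 48 h and 13.87 and 13.76 at 72 h, a rise of 0.38.

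Growth brakes and p53 targets split, with 8 of 22 rising and 7 falling. MDM2, the ubiquitin ligase that restrains p53, rose by 0.59, SESN1 by 0.53 and GADD45A by 0.51. CDKN1A, the p21 inhibitor of cyclin-dependent kinases, rose by 0.31. GADD45B, a stress-induced relative of GADD45A, fell by 0.74 and BBC3, the PUMA death gene, by 0.62. The count of 7 that fell was 3 without the second 48 h array and 4 without the second 72 h array.

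Because mitosis genes rose together, the promoter of PLK1, a mitotic kinase that rose by 0.36, is shown with the element named the cell cycle homology region, searched as TTTGAA on both strands and printed in capitals. It lies at chr16:23678639-23678938 (plus strand, GRCh38.p14, RefSeq).
PLK1: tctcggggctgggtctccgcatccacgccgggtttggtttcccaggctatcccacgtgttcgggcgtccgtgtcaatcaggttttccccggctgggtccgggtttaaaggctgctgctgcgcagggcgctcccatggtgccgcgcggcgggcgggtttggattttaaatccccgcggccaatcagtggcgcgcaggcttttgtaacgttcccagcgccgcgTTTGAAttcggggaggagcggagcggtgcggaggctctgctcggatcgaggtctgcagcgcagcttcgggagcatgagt
Promoters were found for 25 of the 31 mitosis genes. Of these, 17 held the letters, against 18.2% of all genes with a promoter, and so did 13 of the 21 found for genes that rose.

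Genes for making ribosomes rose as a list, with 14 of 23 up, 0 down and a median change of 0.27. BOP1, which matures the large subunit, read 11.11 and 11.13 at 48 h and 11.75 and 11.81 at 72 h, a rise of 0.66. RRS1 rose by 0.64, POLR1B, a subunit of RNA polymerase I, by 0.59 and RRP9 by 0.54. MYC, the factor known to drive these genes, changed by 0.12 and did not pass. Of 40 cytosolic ribosomal proteins, 14 rose and 0 fell, but the median change was 0.05. Their median level was 14.11 to 14.14 on the 4 arrays, near the top of the scale, and the members with the largest rises, RPS23 (0.67), RPL29 (0.62), RPL22 (0.61) and RPS7 (0.59), had levels between 10.68 and 12.15.

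Respiratory chain and ATP synthase genes rose in 18 of 35 cases, fell in 1 and had a median change of 0.19. ATP5MC1, a ring subunit of ATP synthase, read 11.53 and 11.64 at 48 h and 12.28 and 12.24 at 72 h, a rise of 0.68. Cytochrome c, CYCS, rose by 0.53, while SDHA, the flavoprotein of complex II, fell by 0.40. The count of 18 was 10 without the first 48 h array and 11 without the first 72 h array. Proteasome subunits gave 7 rises and 1 fall among 27, and 1 rise without the first 72 h array, 3 without the second 48 h array and 4 without the second 72 h array. Cholesterol synthesis genes gave 3 rises among 19, and 0 without the first 72 h array. The median changes of both lists were 0.06.

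Chaperones and the amino acid stress program went in opposite directions. Of 28 unfolded protein and heat shock genes, 12 rose and 3 fell, with a median of 0.11. The mitochondrial chaperonins HSPD1 and HSPE1 rose by 0.50 each, although a dim second probe for HSPD1 changed by 0.02 and did not pass, and the mean of both HSPD1 probes rose by 0.26. The cytosolic chaperone HSPA8 rose by 0.41 and HSPB1 by 0.39. The inducible HSPA6 fell by 0.36 from a low level of 7.65 and 7.68. The 3 that fell became 1 without the first 72 h array.

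ATF4 is the factor that cells use when amino acids run short or proteins misfold, and 20 of 30 genes of its list fell while 1 rose, with a median of -0.23. ASNS, which makes asparagine, read 11.52 and 11.45 at 48 h and 10.42 and 10.56 at 72 h, a 1.99-fold fall (adjusted p = 5.76e-09 by limma). TRIB3, an inhibitor of the same response, read 12.29 and 12.42 and then 11.69 and 11.56, a fall of 0.73. PHGDH, which opens serine synthesis, read 13.16 and 13.19 and then 12.54 and 12.63, a fall of 0.59. Every late array lay below every early one for these genes, and 57.5% of all genes had no overlap between the times. AARS1, the alanyl tRNA synthetase, fell by 0.63, PCK2 by 0.52 and ATF4 itself by 0.21, while SLC7A1, an arginine carrier, rose by 0.37. The count of 20 was 13 without the first 72 h array.

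ASNS is the textbook target of ATF4, so its promoter is shown with the core of the CEBP-ATF response element in capitals, searched as TGATGNAA on both strands. It lies at chr7:97872359-97872658 (minus strand, GRCh38.p14, RefSeq), and a second ASNS start in the RefSeq table held no match.
ASNS: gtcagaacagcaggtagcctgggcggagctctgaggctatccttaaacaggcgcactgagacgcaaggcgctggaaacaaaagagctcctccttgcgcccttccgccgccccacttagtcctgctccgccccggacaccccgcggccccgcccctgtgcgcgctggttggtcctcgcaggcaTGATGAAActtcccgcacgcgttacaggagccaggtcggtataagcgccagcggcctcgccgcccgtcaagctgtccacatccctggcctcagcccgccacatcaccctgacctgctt
Of 26 ATF4 list genes with a promoter, 10 held the letters, against 4.46% of all genes with a promoter, and so did 6 of the 18 found for genes that fell.

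**Figure D3:**
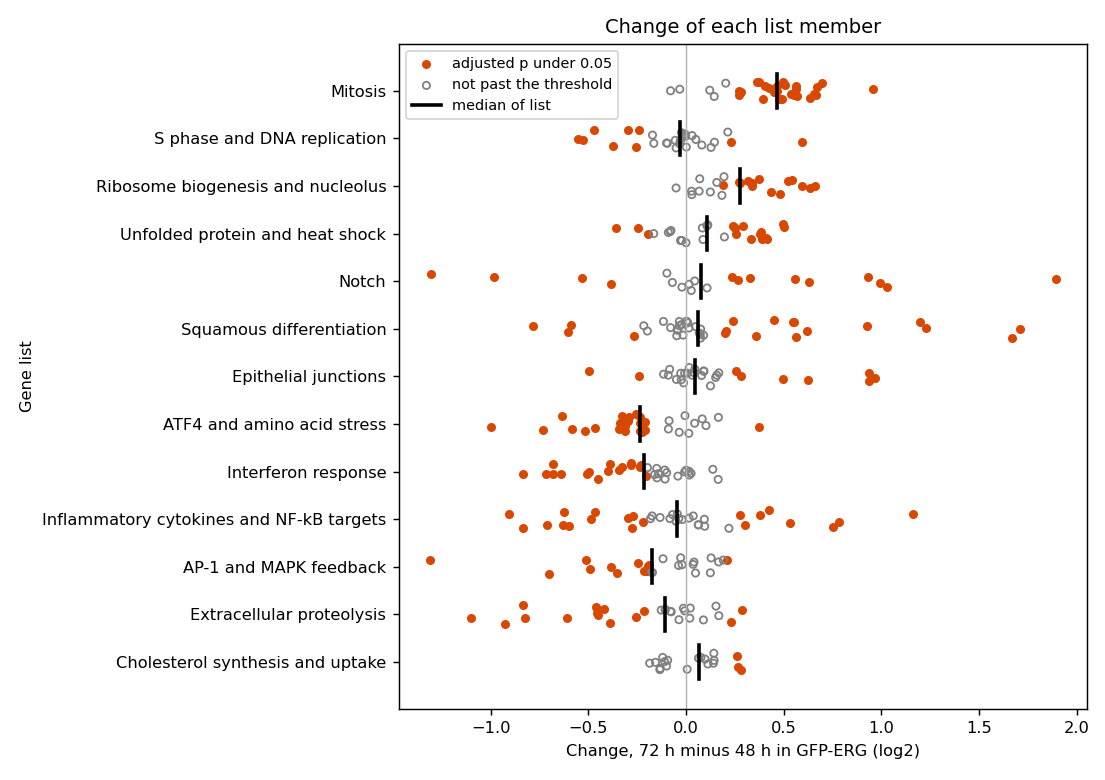
Change between 48 h and 72 h in GFP-ERG cells (log2, x axis) of each measured member of 13 gene lists (rows), with filled dots for an adjusted p under 0.05 by limma, open dots for the rest and a bar at the median of the list. Mitosis has its bar at 0.47 and ATF4 and interferon response at -0.23 and -0.22, while S phase lies at -0.03.

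Interferon response genes fell together with IFNB1: 18 of 34 fell and 0 rose, with a median of -0.22. OAS1, which senses double-stranded RNA, read 12.38 and 12.51 at 48 h and 11.59 and 11.62 at 72 h, a 1.79-fold fall (adjusted p = 1.09e-08 by limma). Its 2 further probes fell by 0.68 and 0.38. IFIT1, which binds foreign RNA, read 12.15 and 12.03 and then 11.45 and 11.30, a fall of 0.72. ISG20, an exonuclease, read 13.68 and 13.69 and then 13.01 and 13.00, and fell by 0.68. The late arrays lay below the early ones in all 3, where 57.5% of all genes had no overlap between the times. RSAD2 fell by 0.68, IFI44 by 0.64 and the RNA sensors RIGI and IFIH1 by 0.40 and 0.24. ISG15, at 14.68 to 14.75, and MX1, at 14.88 to 14.99, read close to the ceiling at both times and did not pass. The list's median level was 12.32 and 12.34 at 48 h and 12.11 and 12.08 at 72 h, which is far above the median of all probes throughout. Leaving out the first 72 h array gave 1 rise.

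The promoter of IFIT1 at chr10:89392373-89392672 (plus strand, GRCh38.p14, RefSeq) is shown as an example of the interferon-stimulated response element, whose core was searched as GAAA, any NN and GAAA on both strands and is printed in capitals.
IFIT1: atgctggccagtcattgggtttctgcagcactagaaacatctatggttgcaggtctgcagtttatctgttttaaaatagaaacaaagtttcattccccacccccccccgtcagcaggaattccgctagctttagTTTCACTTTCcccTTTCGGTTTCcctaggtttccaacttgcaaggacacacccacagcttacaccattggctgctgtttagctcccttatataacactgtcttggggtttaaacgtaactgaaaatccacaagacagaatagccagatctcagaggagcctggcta
It held 2 matches. Promoters were found for 26 of the 34 genes, and 19 held the letters, against 4.38% of all genes with a promoter. Among genes that fell it was 11 of 14.

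Inflammatory genes did not move as a block, with 8 of 36 up, 12 down and a median of -0.05. IL1B, an interleukin that inflammasomes process, read 12.31 and 12.38 at 48 h and 13.48 and 13.53 at 72 h, a 2.23-fold rise (adjusted p = 3.39e-11 by limma). The chemokines CCL2, CXCL8 and CXCL10 rose by 0.78, 0.75 and 0.42. PTGS2, which encodes cyclooxygenase 2, read 9.12 and 8.73 and then 8.01 and 8.03, and fell by 0.91. CXCL11, CCL5 and CXCL2 fell by 0.63, 0.62 and 0.60, and IL6 by 0.49. SOD2, the mitochondrial superoxide dismutase that NF-kB induces, fell by 0.71 on its brightest probe, while a dimmer probe changed by 0.16 and did not pass.

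AP-1 factors and MAPK feedback genes, which report growth factor signalling, fell in 12 of 26 cases and rose in 1, with a median of -0.17. PHLDA1, an early growth factor target, read 12.50 and 12.40 at 48 h and 11.10 and 11.19 at 72 h, a 2.48-fold fall. The phosphatase DUSP1 fell by 0.70, the AP-1 subunits FOSL1 and JUN by 0.51 and 0.49, and the ETS factors ETV4 and ETV5 by 0.35 and 0.21. FOS (-0.04), JUNB (-0.03) and SPRY4 (0.04) did not pass. The count of 12 was 6 without the first 72 h array and 7 without the second 48 h array.

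Genes that cut or remodel matrix fell in 12 of 27 cases and rose in 2, with a median of -0.11. ADAMTS6, a secreted metalloprotease, read 8.40 and 8.23 at 48 h and 7.24 and 7.19 at 72 h, a fall of 1.10 on the log2 scale. SERPINE2, an inhibitor of thrombin and urokinase, read 15.04 and 14.94 and then 14.21 and 14.10, a fall of 0.83. The urokinase receptor PLAUR read 10.26 and 10.29 and then 9.48 and 9.42, and fell by 0.83. Each of these fell without overlap between the times, and 57.5% of all genes had no such overlap. MMP3 fell by 0.93, TIMP2 by 0.61, MMP9 by 0.46 and urokinase itself, PLAU, by 0.45. The 2 that rose were PLAT (0.29) and ADAM10 (0.23), and their count was 1 without either 48 h array and 0 without the second 72 h array.

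Desmosome and squamous genes held large rises within lists whose medians were near 0. DSC3, a desmosomal cadherin, read 9.41 and 9.56 at 48 h and 10.68 and 10.75 at 72 h, a 2.35-fold rise. DSG3, its partner, read 9.23 and 9.38 and then 10.49 and 10.51, a 2.29-fold rise. DSP, the plaque protein that ties desmosomes to keratin, read 10.76 and 10.89 and then 11.75 and 11.84, a 1.96-fold rise, and a dimmer DSP probe rose by 0.94. The early and late arrays of each lay apart, as was the case in 57.5% of all genes. PKP1, another plaque protein, rose by 0.94, although a probe near the bottom of the scale changed by 0.05 and did not pass. The tight junction claudins CLDN1 and CLDN7 rose by 0.93 and 0.62, and CLDN12 fell by 0.50. CDH1, the E-cadherin gene, read 6.97 to 7.12 on these arrays, below the median of all probes, and did not pass. Of 29 junction genes, 7 rose and 2 fell, or 1 without either second array.

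Of 38 squamous differentiation genes, 14 rose and 4 fell, and 17 of the 38 lay below the median of all probes. SERPINB3, a squamous cell antigen, read 10.25 and 10.45 at 48 h and 12.12 and 11.98 at 72 h, a 3.27-fold rise. ZNF750, a factor of epidermal differentiation, read 7.35 and 7.46 and then 9.13 and 9.02, a 3.17-fold rise. PI3, the elastase inhibitor elafin, read 13.70 and 13.91 and then 14.76 and 14.71, a rise of 0.93 that ended near the top of the scale. GRHL3 rose by 0.62 and KRT16, a keratin of stressed epidermis, by 0.56. TGM1, which cross-links the cornified envelope, fell by 0.78, and the envelope precursors SPRR1A and LCE3D by 0.60 and 0.59. The envelope protein IVL and the suprabasal keratin KRT1 changed by 0.07 and 0.00 and did not pass.

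Among basal cell genes, KRT5 read 13.21 and 13.40 at 48 h and 13.90 and 13.87 at 72 h and rose by 0.58. ITGB4, the integrin of hemidesmosomes, read 11.90 and 11.97 and then 10.80 and 10.84, a 2.17-fold fall, and LAMB3, a laminin chain of the underlying matrix, fell by 0.56. Dimmer probes for ITGB4 and LAMB3, both under the median of all probes, changed by 0.02 and -0.02 and did not pass. In all, 4 of 14 basal genes rose and 5 fell. The 4 were 2 without the first 72 h array, and the 5 were 3 without either second array. Mesenchymal genes gave 9 rises and 9 falls among 33, with TNC at -0.84, CDH2 at -0.71, ZEB2 at 0.77 and ACTA2 at 0.65. The 9 falls were 5 without either first array.

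In the Notch pathway, several target and receptor genes rose, while ligands moved both ways. Of 20 measured genes, 9 rose and 4 fell, with a median of 0.08. HEY1, a repressor that Notch induces, read 8.07 and 8.06 at 48 h and 9.96 and 9.95 at 72 h, a 3.71-fold rise (adjusted p = 7.69e-15 by limma). HES5, another such repressor, read 7.38 and 7.36 and then 9.67 and 9.82, a 5.20-fold rise. NRARP, a feedback target, read 6.66 and 6.48 and then 7.60 and 7.59, a rise of 1.03. All 3 stood higher on both late arrays, where 57.5% of all genes had no overlap between the times. HES4 rose by 0.93, HES1 by 0.63, the receptor NOTCH1 by 0.99 and the ligand JAG1 by 0.55. LFNG, a glycosyltransferase that tunes the receptors, read 9.58 and 9.75 and then 8.36 on both late arrays, a 2.47-fold fall. The ligands DLL1 and JAG2 fell by 0.98 and 0.38, and RBPJ, the DNA-binding partner of Notch, by 0.53, while a dimmer RBPJ probe changed by -0.09 and did not pass. The count of 9 was 5 when probes below the median of all probes were left out of the fit.

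HES5 had the largest rise of these genes, and its promoter at chr1:2530214-2530513 (minus strand, GRCh38.p14, RefSeq) is shown with the RBPJ core, searched as TGGGAA on both strands, in capitals. HES5 is on no list and was taken from the genes with the largest changes.
HES5: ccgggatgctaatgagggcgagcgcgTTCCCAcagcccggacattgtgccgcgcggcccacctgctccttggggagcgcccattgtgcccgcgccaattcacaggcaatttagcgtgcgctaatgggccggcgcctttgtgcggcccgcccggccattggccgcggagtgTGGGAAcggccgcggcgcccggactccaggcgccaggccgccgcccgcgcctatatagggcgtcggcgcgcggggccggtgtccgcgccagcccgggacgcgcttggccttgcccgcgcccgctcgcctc
It held 2 matches. Of 16 Notch list genes with a promoter, 6 held the letters, against 28.1% of all genes with a promoter. So did 3 of the 8 found for genes that rose and 2 of the 3 found for genes that fell.

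TGF-beta, BMP and Wnt genes also moved singly. ID3, an inhibitor of differentiation that BMP signals induce, read 11.97 and 12.22 at 48 h and 13.10 and 13.20 at 72 h, a 2.08-fold rise, and BAMBI, a decoy receptor, rose by 0.71. BMP2 itself read 10.30 and 10.42 and then 9.67 on both late arrays and fell by 0.69, and GREM1, a BMP antagonist, fell by 0.65. These 26 genes gave 5 rises and 9 falls, with a median of -0.06. Of 33 Wnt genes, 4 rose and 9 fell, with DKK1, WNT7A (-0.75) and FZD10 (-0.63) the largest falls and cyclin D1, CCND1, the largest rise (0.40).

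Markers of other cell types moved little as lists. Of 13 endothelial markers 3 fell, CLDN5 by 1.03, TEK by 0.64 and ROBO4 by 0.21, a call that ended in 3 alternatives, and the list's mean level was 7.12 to 7.13 at 48 h and 6.95 to 6.99 at 72 h. CD68 was the 1 leukocyte marker of 12 that passed, and the list's mean level went from 7.22 and 7.23 to 7.15 and 7.13. The fibroblast list of 12 gave 2 rises and 3 falls. The luminal list of 12 gave a rise of KRT8 (0.43) and a fall of FKBP5 (-0.79). The neuroendocrine list of 10 gave 1 rise and 1 fall. The calls of DCN, FBLN1 and THY1 (fibroblasts) and of SCG2 and CHGB (neuroendocrine cells) each ended in at least 1 alternative. Further FBLN1 probes changed by 0.04, -0.01 and 0.00 and did not pass. The part of these markers in the other changes was not tested.

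GFP cells over the same interval give the background for what was measured in GFP-ERG cells. In them 3777 genes passed, which is 22.8% (11.7% higher and 11.1% lower at 72 h). The 2 comparisons share no array, but they share the estimate of each gene's spread, so their calls are not independent. Of the 4220 genes called in GFP-ERG cells, 2751 were also called in GFP cells, which is 65.2% of the former and 72.8% of the latter, and 2742 of these moved the same way. Over all 16591 genes, Pearson's r of the 2 changes was 0.85, a description across genes, which are not independent replicates. MT1M changed by 5.47 in GFP cells, MT1G by 4.20, FABP4 by 3.22 and HES5 by 2.70. Mitosis genes gave 28 rises of 31 there, ATF4 genes 23 falls of 30 and interferon genes 19 falls and 1 rise of 34.

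The test of the difference between the constructs passed for 77 genes, or 0.464%, with the change more positive in GFP-ERG cells for 32 (0.193%) and more negative for 45 (0.271%). At an unadjusted p under 0.05 there were 1588. Of the 77, 35 had values of opposite sign in the constructs, 9 of them past the threshold in each. A further 30 had the same sign and a larger size in GFP-ERG cells, and 12 the same sign and a larger size in GFP cells. The number was 125 without the second GFP-ERG array at 48 h and between 32 and 46 without the first or second GFP array at 48 h, the second GFP array at 72 h or either GFP-ERG array at 72 h.

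**Figure D4:**
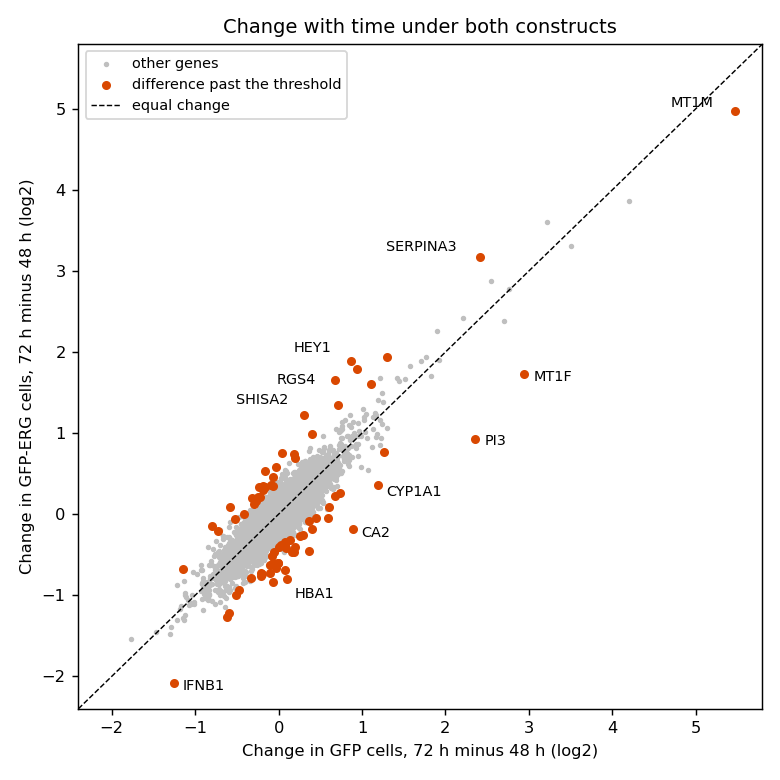
Change between 48 h and 72 h in GFP cells (log2, x axis) against that in GFP-ERG cells (log2, y axis), with 1 dot per gene for 16591 genes and the 77 genes whose difference passed in orange. Most genes lie along the dashed line of equal change, with HEY1, RGS4 and SHISA2 above it and PI3, MT1F and CA2 below.

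HEY1 showed the most positive difference. In GFP cells it read 7.67 and 7.72 at 48 h and 8.60 and 8.54 at 72 h, a rise of 0.87, against 1.89 with GFP-ERG (difference 1.02 ± 0.09 SE, adjusted p = 1.86e-06 by limma). RGS4, which shuts off G protein signals, started alike, at 6.94 and 6.84 with GFP and 6.96 and 6.89 with GFP-ERG, and reached 7.58 and 7.55 against 8.56 and 8.60 (difference 0.99, adjusted p = 4.37e-06 by limma). All 4 early arrays of RGS4 lay together, below the median of all probes (7.24), and the late ones apart by construct. Differences may be understated at such low levels, which was not tested. SHISA2, known from frog embryos to hold back Wnt and FGF receptors, rose from 7.50 and 7.49 to 8.69 and 8.76 with GFP-ERG. With GFP it changed by 0.31, a difference of 0.92, and read 6.88 to 7.24, at most about the median of all probes. TNFAIP6, a hyaluronan-binding protein of inflammation, read 8.41 and 8.39 and then 10.20 and 10.18 with GFP-ERG, and 8.24 and 8.38 and then 9.24 and 9.27 with GFP. Its difference was 0.85 and that of SERPINA3 was 0.76. For TNFAIP6 and SERPINA3, as for RGS4, the constructs overlapped or lay close at 48 h and stood apart at 72 h.

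PI3 showed the most negative difference, with 12.20 and 12.37 at 48 h and 14.69 and 14.60 at 72 h in GFP cells, a change of 2.36 against 0.93 (difference -1.43 ± 0.11 SE, adjusted p = 2.15e-07 by limma). MT1F read 11.20 and 11.22 and then 14.16 and 14.15 in GFP cells, a change of 2.95 against 1.73 (difference -1.22). For both genes the constructs differed at 48 h, with GFP-ERG higher, and lay close together at 72 h, near the top of the scale. CA2, a carbonic anhydrase, read 11.07 ± 0.09 (SD, n = 2) and then 10.88 ± 0.07 with GFP-ERG, a change of -0.19 that did not pass (it did without the second 48 h array, at -0.25), while it rose by 0.89 from 9.72 and 9.93 with GFP (difference -1.07). HBA1, an alpha globin gene, read 9.20 and 9.10 and then 8.34 and 8.35 with GFP-ERG (difference -0.91). The GFP arrays read 7.12 to 7.29 for HBA1, around the median of all probes. CYP1A1, a target of the aryl hydrocarbon receptor, rose by 0.36 with GFP-ERG and by 1.19 with GFP (difference -0.83). IFNB1 fell in both, by 1.25 from 12.59 and 12.21 with GFP (difference -0.82, adjusted p = 0.0227 by limma), a call that ended in 5 alternatives, where the adjusted p reached 0.327.

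**Figure D5:**
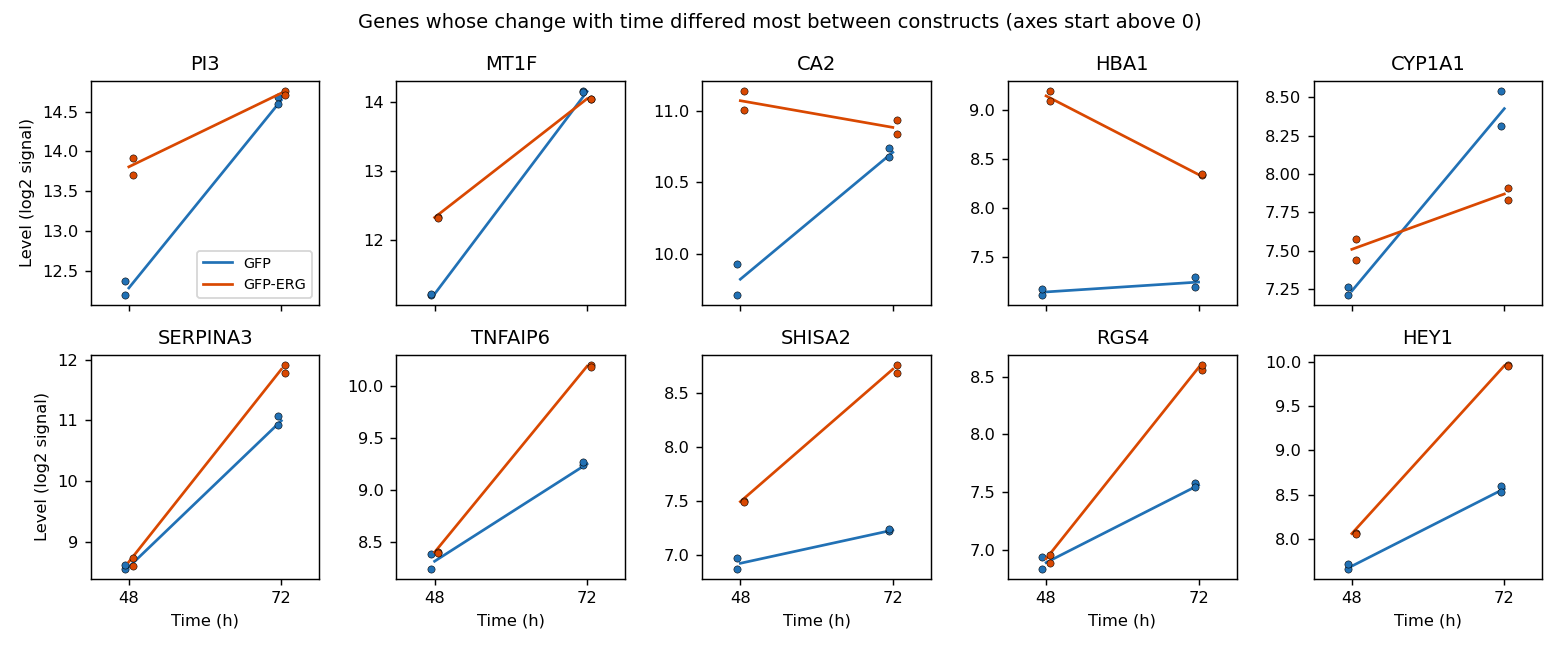
Level (log2 normalized signal, y axis) at 48 h and 72 h (x axis) of the 5 genes with the most negative (top row) and the 5 with the most positive difference in change (bottom row), with 1 dot per array and lines through the group means, GFP in blue and GFP-ERG in orange. RGS4 and SERPINA3 start together and separate by 72 h, while PI3 and MT1F start apart and meet.

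Several members of the lists also passed the test of the difference. CXCL8 read 10.89 on both 48 h arrays and 11.62 and 11.66 at 72 h with GFP-ERG, and 11.94 to 12.09 on all GFP arrays (difference 0.71, adjusted p = 0.000452 by limma). CRP, an acute-phase protein, fell by 0.83 with GFP-ERG from 8.55 and 8.49, while GFP arrays read 6.49 to 6.64 (difference -0.77). These GFP levels lay below the median of all probes (7.24), where a fall has little room to show. SLC30A1 rose less with GFP-ERG (0.77) than with GFP (1.26). In the mitosis list 0 genes passed this test, and likewise 0 in the interferon list (limma). Their differences ran from -0.24 to 0.13 in the mitosis list and from -0.28 to 0.24 in the interferon list, sizes that 2 arrays per group rarely resolve.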

How the data were processed

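RNA of RWPE1 cells was turned into biotinylated cRNA and read on Illumina bead arrays of 1 colour, per the labels. The deposited values, from 5.95 to 15.1, were read as log2 signals from their range, a reading on which each fold change depends. How the authors corrected and normalized the signals, and with which software, is stated by neither labels nor headers (not given in the sources used here). Sorted log2 values of the deposited arrays lay within 0.0391 of their mean, so no further normalization was made. Dim probes may understate changes, which was not tested. Of 20589 probes, 18332 had 1 gene symbol in the platform annotation, 2257 had none and 0 had several. A gene was represented by its brightest probe (16591 genes).

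Group means of all 8 RWPE1 arrays were fitted with limma 3.58.1 in R 4.3.3 (lmFit, contrasts.fit, eBayes), 2-sided, with Benjamini-Hochberg adjustment over all 18332 probes and a threshold of 0.05. Tables and plots used Python 3.11.15, pandas 2.3.3 and matplotlib 3.10.9. The fit was tested on simulated data with 200 changed probes among 18332. Within GFP-ERG it recovered 39% of changes of 0.25 and 100% of changes of 0.5. For the difference between constructs it recovered 5% and 93%. In the data 4409 probes passed within GFP-ERG, so the cut on p was looser there than in the simulation. The 39% therefore does not measure how many changes of 0.25 were recovered in the data. The array numbers, 2 per group, limit the precision. The deviations of same-numbered arrays correlated between -0.06 and 0.08, so the numbers were not taken to pair the samples.

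The members and the 33 gene lists were chosen with earlier results of these data known. The rule for named genes takes the 15 highest and 15 lowest changes that passed without overlap, with the higher group not below the all-probe median, the 5 highest and 5 lowest differences between constructs, and up to 5 members of each list by size. Other list members were named after their values were seen. The alternatives were another variance model, probe summary, filter on dim probes, scaling, replicate block, the 4 arrays alone, and leaving out each array.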

Additional observations from a re-analysis of the deposited data

Results flagged for a closer look

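A change with time that differs between GFP-ERG and GFP cells by the interaction test of limma was the ground for a closer look, and it was met by 77 genes. Those described above have positive differences of 1.02 (HEY1), 0.99 (RGS4), 0.92 (SHISA2), 0.85 (TNFAIP6), 0.76 (SERPINA3) and 0.71 (CXCL8) on the log2 scale. The negative ones are -1.43 (PI3), -1.22 (MT1F), -1.07 (CA2), -0.91 (HBA1), -0.83 (CYP1A1), -0.82 (IFNB1), -0.77 (CRP) and -0.49 (SLC30A1). TCN1, the vitamin B12 binder, rose by 1.94 with GFP-ERG and by 1.29 with GFP, a difference of 0.65. H1-2, a linker histone, rose by 0.34 with GFP-ERG and changed by -0.16 with GFP, a difference of 0.50. RGCC read 9.33 and 9.38 and then 8.19 and 8.09 with GFP-ERG, and fell from 8.09 and 8.08 to 7.45 and 7.52 with GFP, a difference of -0.62. STK32B read 11.92 and 11.84 and then 10.69 and 10.55 with GFP-ERG and changed by -0.62 with GFP, a difference of -0.64. ACSL4, which activates long fatty acids, fell by 0.25 with GFP-ERG and changed by 0.29 with GFP, a difference of -0.55. MT1M rose by 4.97 and 5.47, a difference of -0.50 with an adjusted p of 0.0458 by limma, a call that ended in 10 of its 15 alternatives. The calls of H1-2 and STK32B ended in 5 and 4.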

How the results depend on the processing

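The count of 4220 genes in GFP-ERG cells lay between 3952 and 4276 in the alternatives with all arrays of the construct, and between 3123 and 3641 when 1 array was left out. In GFP cells 3777 genes became 3677 to 4218, and 2520 to 2859. The 77 genes of the difference became 60 to 84 in the alternatives with all arrays and 32 to 125 when 1 array was left out. By array, the number was 34 and 38 without the first and second GFP array at 48 h, 32 without the second GFP array at 72 h, 46 without either GFP-ERG array at 72 h, and 125 without the second GFP-ERG array at 48 h. With array number as a replicate block, 4141 genes passed in GFP-ERG cells, 3686 in GFP cells and 61 for the difference. No result reversed. Several list counts of 3 or fewer genes moved by 1 to 3. Larger list counts moved as well, for example those of the respiratory chain, ATF4, AP-1 and Notch lists, as given above. Of 175 named genes called in GFP-ERG cells, 154 passed under every alternative. Of 19 named genes called for the difference, 15 did. The others were MT1M, whose adjusted p reached 0.236, IFNB1 (0.327), H1-2 (0.177) and STK32B (0.0893), all by limma. The causes were not tested. Genes near the top of the scale, such as MT1X, MT2A, ISG15 and MX1, and near its bottom have little room to show a change.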

Other observations

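Members of lists that were not described above also moved with time in GFP-ERG cells. Among redox genes, 6 of 22 rose and 2 fell: the aldo-keto reductase AKR1B10 read 7.12 and 7.22 at 48 h and 8.17 on both arrays at 72 h, a rise of 1.00 on the log2 scale, and NQO1, a quinone reductase, rose by 0.44. HMOX1, the heme oxygenase, changed by -0.10 and did not pass. Hypoxia and glycolysis genes split, with 10 of 32 up and 8 down. The hexokinase HK2 read 10.19 and 10.32 and then 11.03 and 10.95 and rose by 0.74, while the glucose carrier SLC2A3 fell by 0.71 and the glycolytic regulator PFKFB4 by 0.58. Without the first 72 h array 5 of these genes rose and 5 fell, and without the first 48 h array 5 rose. TFRC, the transferrin receptor, often used as a reference gene, read 11.99 and 12.13 and then 12.83 and 12.96, a rise of 0.84. It was the largest rise of the 9 measured housekeeping genes, of which 3 rose, 1 fell and 5 did not pass, with a median of 0.11. In the lysosome list 4 of 25 rose and 6 fell, with the cholesterol exporter NPC1 at -0.63 and the protease CTSB at 0.53. Without the first 48 h array 2 rose, and without the first 72 h array 2 fell. In fatty acid synthesis 3 of 14 rose and 3 fell, with ACSS2, which activates acetate, at -0.54 and ELOVL6, a fatty acid elongase, at 0.36.

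Other genes of the 77 whose change differed between constructs, chosen after their values were seen, include the small heat shock protein CRYAB, at 1.35 with GFP-ERG and 0.71 with GFP, and the growth factor binder IGFBP5, at 0.99 and 0.40. CYP24A1, which breaks down vitamin D, changed by -0.46 with GFP-ERG and 0.37 with GFP, and the complement gene CFB by -0.15 and -0.79.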
